A study of Mus musculus with 4 samples.

Results

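The genes described here are *Ciita* and 7 genes of the peptide-loading route of major histocompatibility complex class II (MHCII), namely *H2-DMa*, *H2-DMb1*, *H2-DMb2*, *Ifi30*, *Ctss*, *Lgmn* and *Cst3*. They were chosen by symbol, and all 8 were found among the 27998 genes of both data sets. They were followed in Ly6C-high classical monocytes sorted from the bone marrow of wild-type C57BL/6 mice, of which 5 young and 5 old animals of each sex were profiled by droplet scRNAseq with 1 hashtag antibody per mouse. The males were studied at 14 weeks (young) or 27 months (old) of age, the females at 15 weeks or 26.5 months. Each sex was 1 pooled library and 1 experiment, so the effect of sex cannot be told apart from that of the experiment, and the ages were compared within a sex with the mouse as the replicate.

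MHCII molecules assemble with the invariant chain in the endoplasmic reticulum and travel with it to endosomes, where proteases degrade both the invariant chain and the internalized proteins. The DM heterodimer then removes the last piece of the invariant chain and edits which peptide stays bound. CIITA is the coactivator that is recruited to MHCII, invariant chain and DM promoters, and it is itself induced by interferon gamma and is low in most resting monocytes. In mouse bone marrow, Ly6C-high monocytes with MHCII on their surface are regarded as a dendritic cell-leaning fraction.

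The members map to 6 chromosomes of GRCm38. *Ciita*, the class II transactivator, is a 20-exon gene at chr16:10480059-10528418. The DM genes lie side by side within the MHC, with *H2-DMa* (alpha chain) at chr17:34119541-34139101, *H2-DMb2* (a second beta chain) at chr17:34143307-34151555 and *H2-DMb1* (the first beta chain) at chr17:34153072-34160230, all on the plus strand. *Ifi30*, the thiol reductase GILT that opens disulphide bonds of endocytosed proteins, lies at chr8:70762774-70766663. *Ctss*, the cathepsin that cuts the invariant chain, lies at chr3:95526786-95556403, and *Lgmn*, the asparaginyl endopeptidase of endosomes, at chr12:102394084-102439813. *Cst3*, the secreted cysteine protease inhibitor cystatin C, lies at chr2:148871722-148875692.

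The promoters below are shown because the DM beta chain genes, of which *H2-DMb1* was called and *H2-DMb2* was not, can be set beside *H2-Eb1*, an MHCII chain gene, and beside *Ctss*, in which another kind of motif was found. They hold the 250 bases before the RefSeq start in GRCm38.p6, 5′ to 3′ on the plus strand. Capitals mark matches, on either strand, to AACNGATGA (a core of the X and X2 boxes to which the RFX and CREB factors bind), CCAAT (the Y box of NF-Y), the interferon-stimulated response element (GAAA, any 2 bases and GAAA again) or TTCNNNGAA (a gamma-activated sequence). The windows are chr17:34152941-34153190 for *H2-DMb1*, chr17:34144999-34145248 for *H2-DMb2*, chr17:34305617-34305866 for *H2-Eb1* and chr3:95526536-95526785 for *Ctss*. The gene positions above are from GENCODE, in which the *H2-DMb2* window lies inside the gene and the *H2-DMb1* window runs past its start. Distances below are from the RefSeq start.
H2-DMb1: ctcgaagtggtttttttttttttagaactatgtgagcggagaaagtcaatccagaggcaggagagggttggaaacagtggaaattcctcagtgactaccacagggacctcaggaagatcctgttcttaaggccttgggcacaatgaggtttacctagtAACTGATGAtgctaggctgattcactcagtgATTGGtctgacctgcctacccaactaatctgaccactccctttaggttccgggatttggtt
H2-DMb2: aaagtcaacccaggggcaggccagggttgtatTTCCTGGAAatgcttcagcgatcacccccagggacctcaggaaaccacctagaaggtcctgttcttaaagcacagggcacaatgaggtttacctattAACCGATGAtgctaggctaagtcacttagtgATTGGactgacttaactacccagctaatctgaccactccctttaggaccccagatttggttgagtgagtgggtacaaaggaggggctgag
H2-Eb1: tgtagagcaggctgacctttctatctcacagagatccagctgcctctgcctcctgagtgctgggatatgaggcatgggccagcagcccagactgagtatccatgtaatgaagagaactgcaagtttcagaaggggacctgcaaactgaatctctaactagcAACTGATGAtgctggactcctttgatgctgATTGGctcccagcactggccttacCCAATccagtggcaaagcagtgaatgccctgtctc
Ctss: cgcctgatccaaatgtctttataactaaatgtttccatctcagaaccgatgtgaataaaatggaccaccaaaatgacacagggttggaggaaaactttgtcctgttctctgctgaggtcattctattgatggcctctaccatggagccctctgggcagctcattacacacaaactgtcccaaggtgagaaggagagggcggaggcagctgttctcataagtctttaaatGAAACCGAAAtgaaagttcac

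A promoter window of 300 bases (250 before and 50 after the start) was given for 7 of the 8 members, in 9 windows, and the entry for *Ciita* was missing. AACNGATGA was found in *H2-DMb1* (first base at -92 from the start), *H2-DMb2* (-121) and *H2-Eb1* (-89), and in 0.648% of all 32851 windows. It was not found in *H2-Aa*, another MHCII chain gene, whose window held ATTGG at -48. In each of the 3 windows with AACNGATGA, it was followed by ATTGG, the reverse complement of CCAAT, at -61, -90 and -59. CCAAT on either strand was found in 37.4% of all windows. The interferon-stimulated response element was found in *Ctss* at -21 and in 3.44% of windows, and TTCNNNGAA in *H2-DMb2* at -218 and in 8.3%. The *Ifi30* and *Cst3* windows held none of these letters, and *Lgmn* and *H2-DMa* held only CCAAT, each in 1 of 2 windows. A match describes letters in a window and says nothing of binding, and these motifs were picked with the sequences in view.

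UMI totals ranged from 2827638 to 18186954 per female and from 330586 to 1108320 per male, over 259 to 1592 and 49 to 206 cells. All 6 monocyte markers (*Ly6c2*, *Ccr2*, *Csf1r*, *Itgam*, *Lyz2*, *Fn1*) were present in every group, and their sum lay between 24923 and 30963 CPM (UMIs scaled to a common library size, here by plain UMI totals) in females. In males it lay between 33493 and 36207 CPM in the young and between 15616 and 32596 CPM in the old, lowest in old male 4. Neutrophil genes (*Ngp*, *Camp*, *Ltf*, *Lcn2*) were at 42.4 to 4571 CPM (median 1707) in old males, highest in old male 4. Young males held them at 36.2 to 4141 CPM (median 57.9), highest in young male 2. Old females held them at 63.6 to 309 CPM and young females at 45.6 to 1323 CPM, highest in young female 3. In females the summed markers of B cells were at 17.4 to 31.8 CPM in old and 29.7 to 37.2 CPM in young mice, those of conventional DCs at 11.5 to 23.2 and 20.3 to 30.3 CPM and those of plasmacytoid DCs at 77.1 to 103 and 86.5 to 103 CPM. In males the same 3 sums overlapped between the ages, and the macrophage markers were at 1.80 to 63.9 CPM (median 22.3) in old and 0 to 17.5 CPM (median 1.65) in young mice. Median UMIs per cell were higher in every old mouse than in every young mouse of the same sex, at 9699.5 to 13033 against 7978 to 8990 in females and 4489.5 to 8844 against 3805.5 to 4455.5 in males. Old female 1 stood apart: 90.3% of its cells held a UMI of *H2-Aa*, *H2-Ab1* or *H2-Eb1*, the genes of the MHCII chains, against 37.7% to 50.1% in the other old females and 31.5% to 34.3% in young females.

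*Ciita*, *H2-DMb1* and *Ifi30* were higher in old than in young females, with mean levels of 5.91 ± 3.61 against 1.21 ± 0.699 CPM, 219 ± 111 against 118 ± 10.7 CPM and 1750.4 ± 120.0 against 1358 ± 34.3 CPM (SD, n = 5). These 3 of the 8 members were called, all upward, at an adjusted p of 0.05 in edgeR's quasi-likelihood test of summed UMIs, where 3.42% of the 10074 genes tested were called. Levels of members are CPM of TMM-scaled library sizes, except where plain totals are named. Since UMIs were summed over cells, more cells with a transcript and more transcript per cell cannot be told apart in them.

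*Ciita* was a rare transcript, with 208 UMIs in old and 50 in young females. In old females 1 to 5 its level was 12.0, 3.48, 3.24, 4.67 and 6.12 CPM, and in young females 1 to 5 it was 1.2, 0.727, 2.15, 1.59 and 0.373 CPM. Old female 1 was highest and the lowest old female lay above the highest young one. The log2 fold change was 2.22 (SE 0.42, edgeR adjusted p = 0.0076), and 1.85 without old female 1 (adjusted p = 0.0048). After thinning of each cell to 2000 UMIs, *Ciita* was below the filter on low counts and had no test.

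Of the DM genes, *H2-DMb1* alone was called. *H2-DMb1* was at 414, 159.9, 144, 173 and 207 CPM in old females 1 to 5 and at 112, 130.4, 109.9, 128 and 107 CPM in young females 1 to 5. Every old female lay above every young one, and old female 1 lay far above the other 9 females. The log2 fold change of *H2-DMb1* was 0.89 (SE 0.22, edgeR adjusted p = 0.0399), and without old female 1 it was 0.53 with an adjusted p of 0.0048. The adjusted p of *H2-DMb1* was between 0.0764 and 0.113 when any 1 young female was left out and 0.0539 in DESeq2.

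Its partner chain *H2-DMa* was at 452, 279, 259, 313 and 289 CPM in the old females and at 271, 279.8, 248, 285 and 279 CPM in the young ones. The groups overlapped, old female 1 again being the highest, and the log2 fold change was 0.22 (SE 0.11, edgeR adjusted p = 0.36), or 0.06 without that mouse. *H2-DMb2*, the neighbour of *H2-DMb1* with a near-identical stretch, was at 4.99 to 6.30 CPM in old and 5.73 to 6.72 CPM in young females, and its log2 difference was -0.20 (SE 0.12, adjusted p = 0.42). Shared sequence may affect the *H2-DMb1* count: 82 of the 441 windows of 60 bases in the last 500 bases of its transcript (18.6%) also occurred in that of *H2-DMb2*, and 0 of 441 the other way. The size of such an effect was not tested.

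*Ifi30* had the smallest error of the 3 called members. Its level was 1908, 1628, 1639, 1752 and 1825 CPM in old females 1 to 5, against 1349.8, 1382, 1324, 1331 and 1405 CPM in young females 1 to 5. No old female overlapped with a young one, and old female 1 was highest by less than the spread of its group. The log2 fold change was 0.37 (SE 0.04, edgeR adjusted p = 2.1e-04) and lay between 0.33 and 0.39 when any 1 mouse was left out.

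The remaining members were not called in females. The cysteine proteases differed by 0.11 for *Ctss* (SE 0.06, adjusted p = 0.41) and 0.17 for *Lgmn* (SE 0.07, adjusted p = 0.22) on the log2 scale of edgeR, with overlapping groups. *Ctss* was at 876 to 1155 CPM in old and 895 to 944 CPM in young females. Once cells with 2 or more UMIs of another lineage's markers were left out, its log2 difference was 0.18 (edgeR adjusted p = 0.0402). That step left out 2330 of the 6641 female cells. *Lgmn* was at 47.1 to 57.0 against 41.6 to 51.2 CPM. *Cst3*, their inhibitor, was at 2883 to 3001 against 2976 to 3189.7 CPM (log2 difference -0.05, SE 0.03, adjusted p = 0.35). The old and young groups were fully apart for 3 of 8 members, where 5.73% of genes tested were apart in 1 direction or the other.

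**Figure D1:**
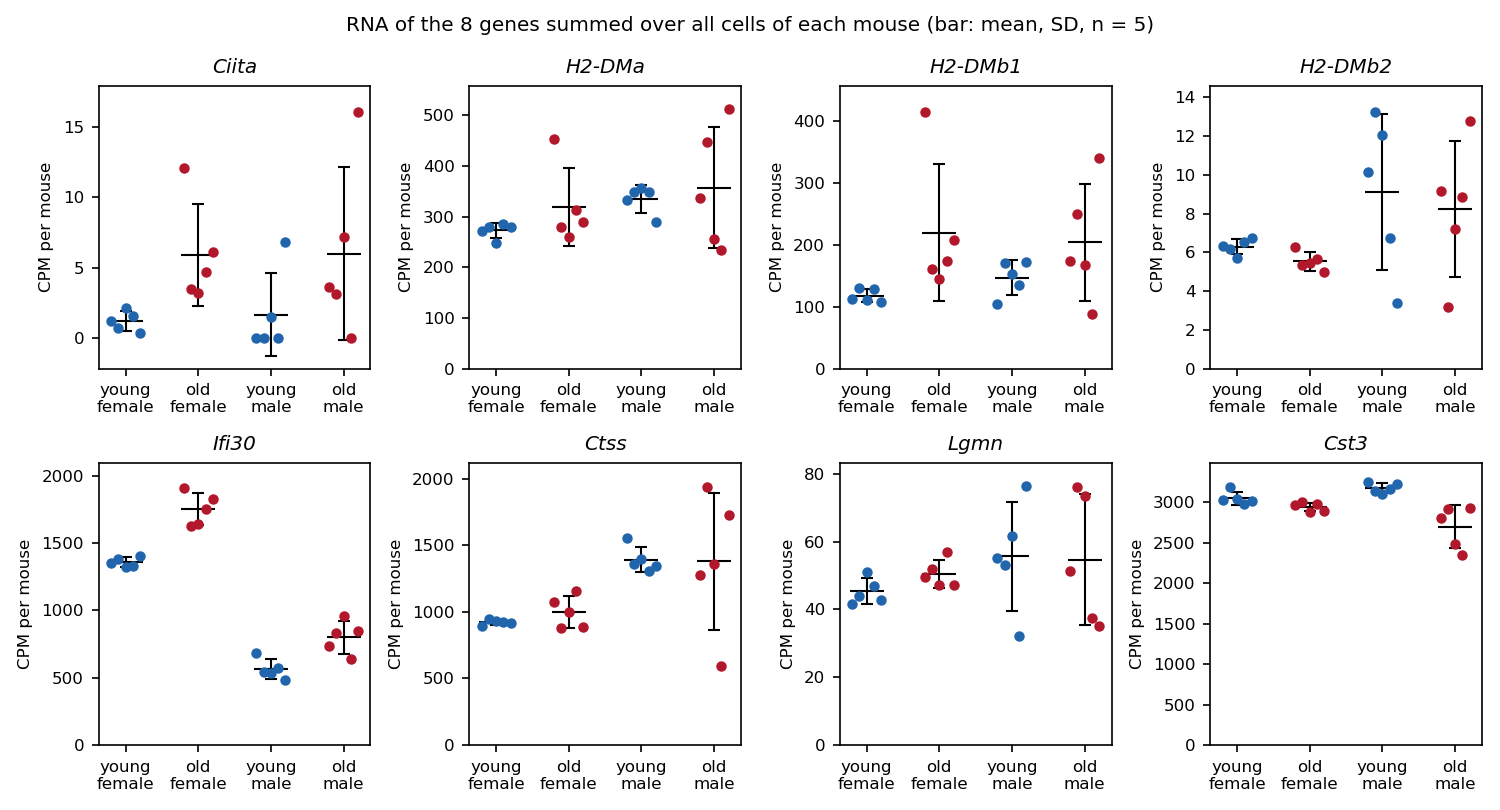
Level of each member in TMM-scaled CPM (linear y axes that start at 0, or below it where an error bar reaches there) summed over all cells of a mouse, with 1 point per mouse and the mean and SD of each group of 5 as bars. In females the old mice lie above all young mice for *Ciita*, *H2-DMb1* and *Ifi30*, with old female 1 the highest for *Ciita* (12.0 CPM), *H2-DMa* (452 CPM) and *H2-DMb1* (414 CPM), and in males the 5 young mice lie above the 5 old mice for *Cst3*.

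In males, 0 of the 6 members that passed the filter on low counts were called by edgeR, where 0% of the 5656 genes tested were called. At an unadjusted p under 0.05, 618 genes passed, 2 of them members (*Ifi30* and *Cst3*), and DESeq2 called 22 genes, of which *Ifi30* was the single member. *Ciita* had 16 UMIs in old and 5 in young males and *H2-DMb2* 25 and 32, and neither was tested.

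*Ifi30* was at 733, 831, 962, 637 and 845 CPM in old males 1 to 5 and at 681, 542, 537, 570.2 and 484 CPM in young males 1 to 5. Old male 4 lay below young male 1, and the other 4 old males lay above all young ones. The log2 difference was 0.51 (SE 0.11, edgeR adjusted p = 0.117), with an adjusted p of 0.0112 in DESeq2. The adjusted p in edgeR was 0.0440 without old male 1 (log2 fold change 0.54) and 0.0102 without old male 4 (0.57).

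*Cst3* was at 2803, 2923, 2489, 2348 and 2929 CPM in old males 1 to 5 and at 3249.9, 3146, 3099.5, 3159.7 and 3226 CPM in young males 1 to 5. All young males lay above all old ones, while 2.1% of genes tested in males were apart in 1 direction or the other. The log2 difference was -0.24 (SE 0.06, edgeR adjusted p = 0.191). The summed monocyte markers were also higher in every young than in every old male, and the part of this in the *Cst3* values was not tested.

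*H2-DMb1* was at 174, 248.6, 167, 88.4 and 339 CPM in old males 1 to 5 and at 104, 169, 152, 135 and 172 CPM in young males 1 to 5. Old male 5 was the highest and old male 4 the lowest of all males, so the groups overlapped (log2 difference 0.44, SE 0.23, edgeR adjusted p = 0.50). The differences of *H2-DMa*, *Ctss* and *Lgmn* were 0.08 (SE 0.16), -0.02 (SE 0.20) and 0.03 (SE 0.23), each with an adjusted p of at least 0.90. *Ctss* spanned 590.2 CPM (old male 4) to 1934 CPM (old male 2) within the old males, a wider range than the 1307 to 1552 CPM of the young, and its log2 difference was 0.17 without old male 4.

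The age effects of the 8 members were compared between the sexes in 1 fit over 20 mice. None was called in edgeR (0 of 8), where 0.0225% of 8893 genes were called, or in DESeq2 (0 of 8). In edgeR 1 member and 527 genes had an unadjusted p under 0.05. That member was *Cst3*, whose log2 effect was 0.19 higher in females (SE 0.07, adjusted p = 0.73).

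**Figure D2:**
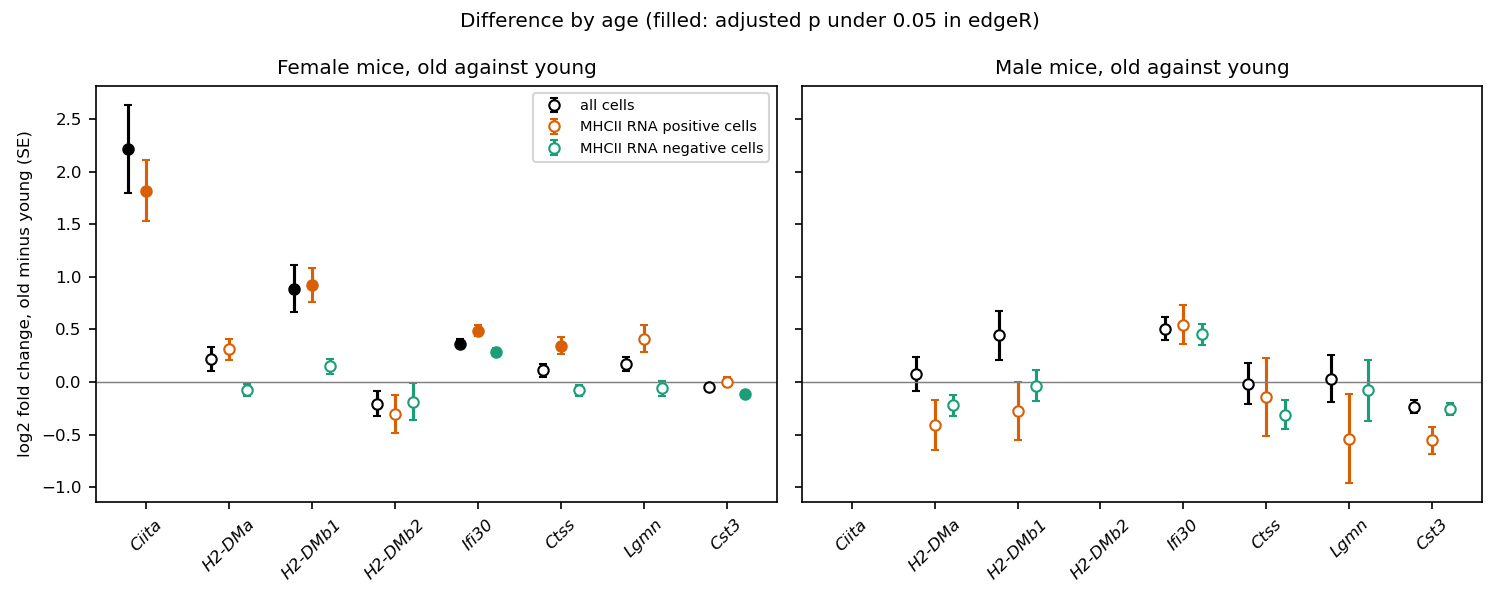
Log2 fold change of old over young mice with its SE (y axis) for each member (x axis), in females and males, for all cells, for cells with a UMI of *H2-Aa*, *H2-Ab1* or *H2-Eb1* and for cells without one. Filled points have an adjusted p under 0.05 in edgeR and members without a point were below the filter on low counts. In females *Ifi30* is filled in all 3 sets of cells (0.37, 0.49 and 0.29), and in males no point is filled.

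Cells were next split by whether they held a UMI of *H2-Aa*, *H2-Ab1* or *H2-Eb1* (MHCII RNA-positive) or none (negative). The positive and negative classes held 1487 and 1522 cells of old females, 1195 and 2437 of young females, 148 and 378 of old males and 81 and 620 of young males. In males 5 of the 6 members tested were higher in positive than in negative cells of the same mice, where 8.58% of 2623 genes were called by edgeR. In females 2 of 7 were, where 7.41% of 9274 genes were called.

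The DM chains were in both counts. *H2-DMb1* was higher in the positive class in 10 of 10 mice of each sex, at 556 ± 201 against 106 ± 15.7 CPM in males (SD, n = 10; log2 fold change 2.34, SE 0.13, edgeR adjusted p = 4.7e-11) and 217 ± 95.8 against 107 ± 13.5 CPM in females (0.91, SE 0.08, adjusted p = 5.9e-08). *H2-DMa* was likewise higher in 10 of 10 mice of each sex, by 1.45 in males (SE 0.11) and 0.32 in females (SE 0.05). *H2-DMb2* was higher in 8 of 10 females, with a log2 difference of 0.19 (SE 0.14, edgeR adjusted p = 0.47), and was below the filter in males.

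The endosomal members were called in males. There *Lgmn* (log2 fold change 1.34, SE 0.28), *Ctss* (0.80, SE 0.15) and *Cst3* (0.47, SE 0.07) were higher in positive cells with edgeR adjusted p values of 0.0041, 0.0011 and 2.2e-04. In females the differences of *Lgmn*, *Ctss* and *Cst3* were 0.13 (SE 0.08), -0.04 (SE 0.05) and 0.03 (SE 0.02), with adjusted p values of 0.39, 0.75 and 0.58. *Ifi30* was called in neither sex (0.20, SE 0.08, in males and -0.09, SE 0.03, in females). Of the 13 male cells with 2 or more UMIs of macrophage markers, 11 were from old mice and 9 were in the positive class. Without the 138 of 1227 male cells that held markers of other lineages, the same 5 members were called between the classes of males by edgeR and 0 of 6 with age. Neutrophil genes, at up to 4571 CPM in males, were not among the markers used for this removal. The test of class by sex was not run.

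Whether a cell counts as positive depends on its depth, and most positive cells of females held few UMIs of the chain genes: 811 of the 1487 positive cells of old females and 972 of the 1195 of young females held 1 or 2. With at least 3 UMIs required for the positive class, all 7 members tested in females were higher there, where 22.9% of 8198 genes were called, and all 6 tested in males, where 29% of 2229 were. In females the log2 fold changes of edgeR were then 5.46 for *Ciita*, 2.25 for *H2-DMb1*, 1.22 for *Lgmn*, 1.10 for *H2-DMa*, 0.71 for *Ctss*, 0.34 for *Cst3* and 0.15 for *Ifi30*, so that *Ctss* and *Ifi30* changed sign against the cut at 1 UMI. Thinned to 2000 UMIs per cell and cut at 1 UMI, *Ctss* was at 0.65 and *Ifi30* at 0.18.

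*Ciita* was too rare for the class test at 1 UMI, but its UMIs lay largely in positive cells. Of its UMIs, 194 of 208 in old females, 42 of 50 in young females, 16 of 16 in old males and 4 of 5 in young males came from them. Its level was 7.12 to 13.3 CPM in positive and 0 to 1.31 CPM in negative cells of old females, and 0.941 to 3.98 and 0 to 1.69 CPM in those of young females. The positive class was the higher in 10 of 10 females.

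Along the number of chain UMIs in a cell, 2 courses were seen in females for the 7 members other than *H2-DMb2* (means over mice with at least 5 cells in a bin, in CPM of plain UMI totals without TMM scaling, a description without a test). *Ciita*, *H2-DMb1* and *H2-DMa* were level up to 2 chain UMIs and rose from there. *H2-DMb1* in old females was at 115 ± 14.5 CPM in cells with 0 chain UMIs, 128 ± 9.34 with 1 to 2, 213 ± 28.7 with 3 to 9, 564 ± 91.1 with 10 to 49 and 1067 ± 194 with 50 or more (SD, n = 5). In the same bins young females were at 99.7 ± 8.19, 105.2 ± 14.1 and 210.0 ± 78.6 CPM (n = 5), 624 ± 157 (n = 4) and 961 ± 389 CPM (n = 2).

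*Ciita* in old females went from 0.618 ± 0.486 and 0.831 ± 0.488 CPM in the first 2 bins to 5.48 ± 2.43, 31.1 ± 13.4 and 59.97 ± 20.6 CPM. In young females it went from 0.451 ± 0.699 and 0.385 ± 0.550 to 9.68 ± 10.6, 22.5 ± 24.1 and 32.1 ± 7.37 CPM, on 11, 12 and 11 UMIs in the last 3. *H2-DMa* was at 255, 259.9, 341, 550 and 852 CPM over the 5 bins in old females. In young females it was at 262, 255, 385, 720 (4 mice) and 849 CPM (2 mice). The ages overlapped in every bin of each of these genes.

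*Ctss*, *Lgmn* and *Cst3* had a second course, with a lower mean at 1 to 2 chain UMIs than in the first bin and higher means from 10 on. Their means in the third bin were also above those in the first, by less than the SD of the third bin. For *Cst3* in old females the dip was within the SD, at 2845 ± 74.1 against 2803 ± 106 CPM. The bin of a cell depends on its depth, and the part of depth in the dip was not tested. *Ctss* in old females was at 929.7, 763, 1117, 1856 and 2139.8 CPM over the 5 bins, and *Lgmn* at 43.4, 38.0, 65.5, 126 and 127 CPM. The mean of *Cst3* was lower in old than in young females in every bin. Its mice did not overlap in the first and the fourth bin, at 2845 ± 74.1 against 3084 ± 76.7 and 3671 ± 502 against 4613 ± 255 CPM (4 young mice). How many of all genes were apart in these bins was not counted.

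*Ifi30* also had the second course, and its mean was higher in the old in every bin. It was at 1745 ± 110.2, 1598 ± 63.5, 1613 ± 166, 2128 ± 149 and 2376 ± 362 CPM in old females, and at 1428 ± 46.5, 1215 ± 89.7, 1261 ± 106, 1749 ± 348 (4 mice) and 1654 ± 304 CPM (2 mice) in young ones. Its ages did not overlap in any of the first 3 bins or the last, which held only 2 young mice. How many of all genes were apart in these bins was not counted. *H2-DMb2* was at 4.51, 4.95, 4.05, 7.17 and 11.3 CPM over the 5 bins in old and at 5.87, 6.44, 9.70, 9.13 (4 mice) and 23.8 CPM (2 mice) in young females, with its highest mean in the last bin in both, on 26 and 7 UMIs.

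The mean shares of cells in the upper bins were higher in old mice of both sexes, and were not tested. Cells with 10 to 49 and with 50 or more chain UMIs made up 9.40% ± 10.7 and 9.42% ± 11.5 of the cells of old females, against 1.76% ± 0.341 and 1.11% ± 0.608 in young females (SD, n = 5). In males the same bins held 9.19% ± 6.67 and 6.35% ± 6.39 in the old against 2.36% ± 0.867 and 1.40% ± 0.838 in the young. Old female 1 had the highest female shares, at 28.5% and 29.8%, and without it the means of old females were 4.63% and 4.34%.

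**Figure D3:**
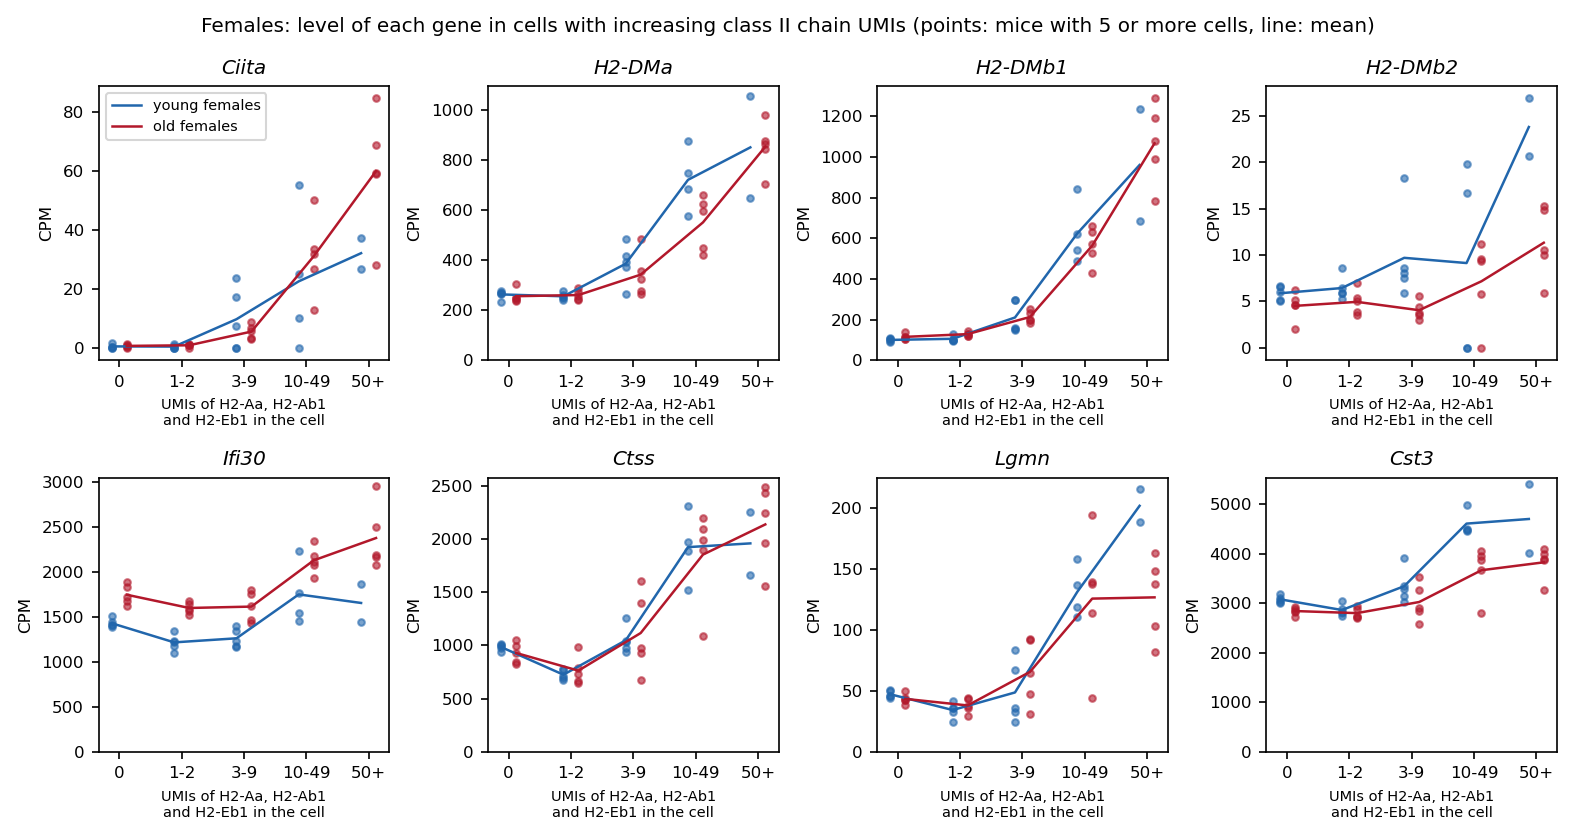
Level of each member in females (y axis, CPM of plain UMI totals) in cells binned by their summed UMIs of *H2-Aa*, *H2-Ab1* and *H2-Eb1* (x axis), with 1 point per mouse with at least 5 cells in the bin and a line through the mean of each age. *H2-DMb1* climbs from 115 to 1067 CPM in old females along nearly the same line as in young females, whereas *Ifi30* is higher in old than in young females in each bin.

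Within the positive class of females, 4 of 8 members were higher in the old, where 2.02% of 9267 genes were called by edgeR. *Ciita* rose by 1.82 (SE 0.29, adjusted p = 0.0016) on the log2 scale, *H2-DMb1* by 0.92 (SE 0.16, adjusted p = 0.0045), *Ifi30* by 0.49 (SE 0.05, adjusted p = 6.0e-05) and *Ctss* by 0.35 (SE 0.08, adjusted p = 0.0266). In positive cells *H2-DMb1* was at 443, 229, 205, 248.8 and 294 CPM in old females 1 to 5 and at 130.0, 171, 140.4, 172 and 135 CPM in young females 1 to 5. The old lay above the young, old female 1 the farthest, and without it the log2 fold change was 0.70 (edgeR adjusted p = 0.0013). How many of all genes were fully apart in these cells was not counted. With at least 3 chain UMIs per positive cell only *Ifi30* was called among the 7 members then tested (log2 fold change 0.45, SE 0.07, adjusted p = 0.0085), where 0.214% of 6543 genes were called. *H2-DMb1* was then at 0.28 (SE 0.16, adjusted p = 0.83) and *Ciita* at 0.45 (SE 0.31, adjusted p = 0.87). The call of *Ctss* was lost without old female 1 (0.33, adjusted p = 0.0650) and without young female 1, 2, 3 or 5 (adjusted p 0.0535 to 0.110), and that of *H2-DMa* was gained without old female 3 (0.38, adjusted p = 0.0408).

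In negative cells of females *Ifi30* was higher in the old by 0.29 (SE 0.04, edgeR adjusted p = 2.1e-04) and *Cst3* lower by -0.12 (SE 0.03, adjusted p = 0.0231), so that 2 of 7 members were called, where 4.11% of 9449 genes were. *Cst3* was at 2724, 2890.1, 2891, 2865 and 2843 CPM in old females 1 to 5 and at 3051, 3194, 3062, 2999 and 3119 CPM in young females 1 to 5. The ages did not overlap, and how many of all genes were apart in these cells was not counted. Old female 1, with 38 negative cells, was lowest. Without it *Cst3* was at -0.10 (adjusted p = 0.0278). The adjusted p of *Cst3* was 0.0558 to 0.0815 without young female 1, 2, 3 or 5, and 0.0655 without cells holding markers of other lineages. After thinning, which moves cells between the classes, it was 0.20 for *Cst3*, and *H2-DMb1* was called instead (0.39, adjusted p = 0.0384). *H2-DMb1* differed by 0.15 in negative cells (SE 0.07, adjusted p = 0.27) and *H2-DMa* by -0.08 (SE 0.06, adjusted p = 0.56), or -0.12 without old female 1 (adjusted p = 0.22).

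The age effect differed between the 2 classes of females for 5 of 8 members, where 1.81% of 9613 genes were called for this interaction by edgeR. It was larger in positive cells by 0.61 for *H2-DMb1* (SE 0.09, adjusted p = 2.3e-04), 0.50 for *Lgmn* (SE 0.13, adjusted p = 0.0373), 0.42 for *Ctss* (SE 0.06, adjusted p = 2.3e-04), 0.34 for *H2-DMa* (SE 0.06, adjusted p = 0.0051) and 0.20 for *Ifi30* (SE 0.04, adjusted p = 0.0166). With the positive class cut at 3 UMIs, 0 of 8 members and 0% of 8642 genes were called, 407 genes and 1 member having an unadjusted p under 0.05, and after thinning *Ctss* alone was called (0.51, adjusted p = 8.5e-05). Without old female 4 the call stayed for *H2-DMb1* and *Ctss* only. *Ifi30* and *Lgmn* also lost it without old female 2, young female 1 or young female 5, and *Lgmn* alone without old female 1, old female 3 or young female 2.

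In the negative cells of males 0 of 6 members were called in edgeR, where 0.259% of 5015 genes were. *Ifi30* was at 680.2 to 961 CPM in old and 518 to 716 CPM in young males (log2 difference 0.45, SE 0.10, adjusted p = 0.0585). *Cst3* was at 2481 to 3009 against 3194 to 3344 CPM, with all young males above all old ones (-0.25, SE 0.06, adjusted p = 0.0585). How many of all genes were fully apart in these cells was not counted. Of the 6 members, 4 reached an unadjusted p under 0.05, as did 697 of the 5015 genes. By DESeq2 the calls were *Ifi30* (adjusted p = 0.0111) and *Cst3* (0.0173). In edgeR both were called without old male 1 (adjusted p 0.0189 and 0.0172), *Ifi30* without old male 4 (0.0119) and *Cst3* without old male 5 (0.0362).

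In the positive cells of males, of which old male 4 had 5, 0 of 6 members and 0% of 1182 genes were called by edgeR, with 2 members and 89 genes at an unadjusted p under 0.05 and 0 members called by DESeq2. *Cst3* was at 3768, 4249, 2776, 2817 and 3310.3 CPM in old males 1 to 5 and at 5589, 4764, 4723, 4811 and 5283 CPM in young males 1 to 5. The ages did not overlap (log2 difference -0.56, SE 0.13, adjusted p = 0.41), and how many of all genes were apart was not counted. *H2-DMb1* in these cells differed by -0.28 (SE 0.28, adjusted p = 0.83). For the interaction of age and class in males, 0 of 6 members and 0% of 3178 genes were called, with 1 member and 86 genes at an unadjusted p under 0.05, and DESeq2 called 0 members.

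How many cells held a UMI of a member depends on depth, so these shares were compared with and without thinning. In females, cells with a *Ciita* UMI made up 14.2%, 3.23%, 3.15%, 4.87% and 7.73% of the cells of old mice 1 to 5 and 1.21%, 0.201%, 2.32%, 1.70% and 0.285% of those of young mice 1 to 5. No old mouse overlapped with a young one. The shares were also fully apart for *H2-DMb1* (76.9% ± 8.92 against 61.3% ± 2.96) and *Lgmn* (43.8% ± 2.31 against 35.6% ± 1.35), each with an exact two-sided permutation p of 0.0079, the smallest that 5 mice against 5 allow. After adjustment over all genes these p values were 0.0522, so 0 of 8 members and 0% of 10074 genes were called, while 3989 genes had an unadjusted p under 0.05. Every gene that was fully apart had this adjusted p, the smallest of all genes, and how many there were was not counted. Median UMIs per cell were also higher in every old than in every young female. With cells thinned to 2000 UMIs, *Ciita* was at 1.36% against 0.451% (exact permutation p = 0.11) and *H2-DMb1* at 31.2% against 19.5% (p = 0.0079, adjusted 0.29). *Lgmn* was then at 12.4% against 9.77% with overlapping mice (exact permutation p = 0.056), and *Ifi30* at 92.9% ± 0.874 against 87.5% ± 1.26, fully apart (p = 0.0079, adjusted 0.29). The adjusted p of 0.29 was again the smallest of all genes and shared by every gene fully apart, whose number was not counted. Of the 10074 genes, 990 had an unadjusted p under 0.05 after thinning.

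In males the share of *H2-DMb1* was 49.5% to 71.4% in old (mean 58.3%) against 36.2% to 45.5% in young mice (mean 40.8%) (exact permutation p = 0.0079, adjusted 0.13) and 30.4% against 23.6% after thinning (p = 0.20). None of the 6 members tested and 0% of 5656 genes were called, while 1386 genes had an unadjusted p under 0.05. The adjusted p of 0.13 was the smallest of all genes and shared by every gene fully apart, whose number was not counted. Shares were set beside those in 36 female cells with 3 or more UMIs of the T cell genes *Cd3d*, *Cd3e* or *Cd3g*, whose median was 11703 UMIs per cell against 9587 in all females' cells. In them *Ciita* had a UMI in 1 cell (2.78%, exact 95% interval 0.0703% to 14.5%), *H2-DMb1* in 55.6% (38.1% to 72.1%), *H2-DMa* in 77.8%, *Ctss* in 94.4% and *Ifi30* and *Cst3* in 91.7%. The *Ciita* shares of all 10 females lay inside its interval, which rests on 1 of 36 cells and is too wide to set a background. The *H2-DMb1* shares of 7 of 10 lay inside theirs. Whether the 36 cells were free of monocyte RNA was not tested, since doublets of 1 mouse could not be seen by hashtags. Shares of cells with a UMI were therefore not read as shares of expressing cells.

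*Ciita* and MHCII chain RNA were found in the same cells more often than in other cells of the same mouse. In cells thinned to 2000 UMIs, 34 of 36 cells with a *Ciita* UMI of old females (94.4%) and 10 of 13 of young females (76.9%) held a chain UMI, against 24.8% and 10.7% of cells without. In the 5 females with at least 5 such cells the difference was 64.6 ± 20.01 percentage points (SD) and positive in 5 of 5 (exact sign-flip permutation p = 0.0625, the smallest that 5 mice allow). It was 73.4 points without old female 1, in which 70.7% of cells without *Ciita* were positive. With all UMIs counted it was 40.3 ± 16.7 points, positive in 8 of 8 mice (exact permutation p = 0.0078). In males 10 of 10 thinned cells with a *Ciita* UMI held a chain UMI (7 in old and 3 in young mice), against 23.3% and 8.71% of the others, and no male had 5 such cells.

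The female pool also carried antibody counts for surface MHCII, given as log2 of MHCII antibody UMIs per 1000 surface antibody UMIs plus 1. In the 8 females with at least 5 *Ciita*-positive cells the mean was 6.59 in cells with and 5.16 in cells without a *Ciita* UMI, a difference of 1.43 ± 0.40 (SD) that was positive in 8 of 8 mice (exact sign-flip permutation p = 0.0078, the smallest that 8 allow). It ranged from 1.07 in young female 4 to 2.17 in old female 2. In thinned cells it was 1.34 in 5 of 5 mice (exact p = 0.0625, again the smallest possible).

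For the other members the same difference was described without a test. It was positive in 10 of 10 females for *H2-DMb1* (0.54 ± 0.88) and *Lgmn* (0.33 ± 0.24), in 7 of 10 for *H2-DMa* (0.55 ± 1.03) and in 6 of 10 for *H2-DMb2* (0.10 ± 0.26). Old female 1 was the highest for the 3 DM genes, and without it the means were 0.27 for *H2-DMb1*, 0.25 for *H2-DMa* and 0.038 for *H2-DMb2*, the last being 0.062 without young female 3. Few cells lacked *Ctss* or *Ifi30*, 5 to 16 and 5 to 18 per mouse in 7 mice. The difference was positive in 3 of 7 for *Ctss* (0.19 ± 0.84), where the mean turned to -0.12 without young female 3, and in 0 of 7 for *Ifi30* (-0.47 ± 0.29). Deeper cells more often hold a UMI of any gene, and the part of depth in these differences was not tested.

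**Figure D4:**
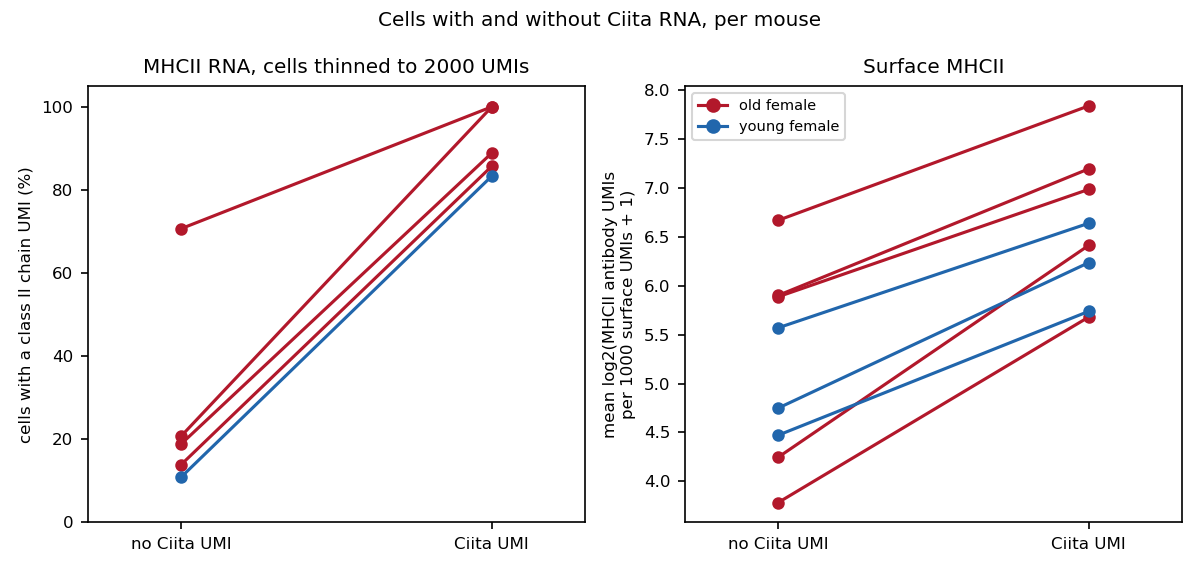
Cells with and without a *Ciita* UMI in the same female mouse, joined by a line. Left, percent of cells thinned to 2000 UMIs with a UMI of *H2-Aa*, *H2-Ab1* or *H2-Eb1* (5 mice). Right, mean log2 surface MHCII antibody UMIs per 1000 surface antibody UMIs plus 1 (8 mice, an axis that does not start at 0). Every line rises from left to right.

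The wider pathway was read from lists of 39 genes. Of the MHCII chains and invariant chain, 4 of 5 tested were higher in old females (*H2-Eb1* by 2.62, SE 0.56, *H2-Ab1* by 2.32, *H2-Aa* by 2.31 and *Cd74*, the invariant chain, by 2.04 on the log2 scale of edgeR). Their median was 2.31, against -0.0012 over all genes. Of 7 genes for CIITA's partners at the promoter (the RFX, NF-Y and CREB proteins), 0 were called in females, 0 at an unadjusted p under 0.05.

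Of the interferon gamma input to *Ciita*, *Irf1*, a transcription factor that acts on *Ciita* promoters, was higher in old females (log2 fold change 0.64, SE 0.16, edgeR adjusted p = 0.0340). Of 7 other endosomal proteases, *Ctsc* (0.49, SE 0.06), which activates serine proteases, and *Ctsz* (0.19, SE 0.03) were higher. Of 2 other cystatins tested, *Cstb* was higher (0.22, SE 0.04), and of the 2 ubiquitin ligase genes of MHCII turnover that passed the filter (*March1* and *March8*) 0 were called, 0 at an unadjusted p under 0.05. In males 0 genes of any list were called by edgeR, although 4 of 4 chain and invariant chain genes had an unadjusted p under 0.05.

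Between the classes of males, where the chains defined the split and are no finding, *Cd74* was higher by 6.12 (SE 0.21) and the interferon gamma receptor chain *Ifngr1* by 0.83 (SE 0.12). *Ctsh* (0.59, SE 0.10) and *Ctsa* (0.46, SE 0.14) were also higher there. In females *Cd74* (3.18, SE 0.13), *Rfx5* (0.64, SE 0.15), the promoter-binding subunit of RFX, and the leukocyte cystatin *Cst7* (0.70, SE 0.09) were higher in positive cells, and *Ctsd* (-0.18, SE 0.04) and *Ctsb* (-0.15, SE 0.04) were lower.

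Over the 10 females, the genes whose log2 level was most like a member's were, as a description over mice that share a library, *Psmb10*, *Cd74* and *Irf1* for *H2-DMb1* (Pearson's r 0.98, 0.97 and 0.96). They were *Cib1*, *Clic4* and *Nxn* for *Ciita* (0.95, 0.94 and 0.94), *Ctsc*, *Vcan* and *Atp5j* for *Ifi30* (0.97 each) and *Lpin2*, *Fam26f* and *Tmsb10* for *H2-DMa* (0.97, 0.94 and 0.92). For *Ctss* they were *Picalm*, *Xdh* and *Ddi2* (0.95, 0.95 and 0.93), for *H2-DMb2* *Ankrd12*, *Dcun1d1* and *Mkln1* (0.94, 0.90 and 0.90), for *Lgmn* *Ehd1*, *Sharpin* and *Clec4e* (0.86, 0.85 and 0.84) and for *Cst3* *1110059G10Rik*, *Lmf1* and *Ankrd11* (0.90, 0.89 and 0.86). Among the members, *H2-DMb1* and *H2-DMa* had r = 0.90 and *H2-DMb1* and *H2-DMb2* r = -0.20, and old female 1 was the highest mouse for both *H2-DMa* and *H2-DMb1*.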

How the data were processed

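The deposited matrices hold raw UMI counts for genes, hashtags and, in females, 6 surface antibodies that the methods leave out. Per the methods and the submitters' processing notes, the authors aligned reads with STAR 2.5.1 to mm10 and counted with Cell Ranger 4.0.0, though file headers name other versions.

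Cells had over 200 detected genes and under 5% mitochondrial UMIs. Females were HTODemux singlets (Seurat 5.3.0), which took 6641 of 10433 barcodes. In males all 1227 barcodes were used, since HTODemux marked 401 as doublets whose leading hashtag held a median of 95.1% of hashtag UMIs. Each cell went to the mouse of its leading hashtag, and the pools shared 0 barcodes. UMIs were summed per mouse, or per mouse and class (at least 5 cells), and all genes were fitted with edgeR 4.0.16 (TMM, filterByExpr, quasi-likelihood test, two-sided, Benjamini-Hochberg at 0.05) in R 4.3.3. Class tests used the mouse as a block. The SE given with an edgeR log2 fold change is the absolute change divided by the square root of the quasi-likelihood F, not a fitted error. DESeq2 1.42.0 was the alternative, and the other alternatives were no filter, thinning to 2000 UMIs, another assignment of cells to mice (HTODemux in males, a leading hashtag of at least 80% in females), removal of cells with 2 or more UMIs of a list of other-lineage markers, a positive class from 3 UMIs and leaving out each mouse. The lists for that removal were those of T cells, B cells, conventional DCs, plasmacytoid DCs, macrophages and basophils, without neutrophils. It took 2330 of the 6641 female cells, 1857 of them by the plasmacytoid DC list, and 138 of the 1227 male cells. *Tcf4* and *Bcl11a* of that list had a UMI in 42.6% and 35.9% of the cells of old females (means over mice). Scripts were tested on simulated data. Single differences used exact permutation tests over mice.

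Members, lists, motifs and tests were chosen with earlier results of these data known. Named genes were the 8 members, up to 4 called genes per pathway list and, per member, the 3 genes of highest Pearson correlation with at least 20 CPM. Positions came from GENCODE vM21 (GRCm38), which may differ from the annotation used for counting, and promoters from RefSeq. Intervals cover counting error only. Doublets of 1 mouse could not be seen by hashtags and were not called. Some genes of the pathway and marker lists are not reported here.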

Additional observations from a re-analysis of the deposited data

Results flagged for a closer look

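Among 116 groups of 5 mice, 9 had a mouse far from the other 4 by Dixon's criterion at the 95% level, while chance marks about 1 in 20 groups. Old female 1 was that mouse in 5 of them, namely *H2-DMa* (452 CPM) and *H2-DMb1* (414 CPM) over all cells, *H2-DMa* in negative cells (303 CPM) and *Cst3* in negative cells (2724 CPM, its lowest), and in the share of MHCII RNA-positive cells (90.3%). Its negative cells numbered 38. Without this mouse the mean share of positive cells of old females was 44.7% in place of 53.8%, and *Cst3* in negative cells stayed called by edgeR.

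Young female 3, the female with the fewest cells (259), was apart for *H2-DMa* in negative cells (236 CPM) and for the share of its cells with an *H2-DMa* UMI (81.1%), the lowest of the young females in both. This mouse also had the highest neutrophil genes of the females (1323 CPM), and their part in these values was not tested. Old female 2, with 371 cells, had the lowest share of cells with a *Cst3* UMI (99.7%), where the other 4 old females were at 100%. With those 4 tied at the ceiling, a gap of any size gives this flag. Young male 5 had the highest share of *Ciita*-positive cells among young males (2.46%), on 4 UMIs.

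The effect of age differed between MHCII RNA-positive and negative cells of females for *H2-DMb1* (by 0.61 on the log2 scale), *Lgmn* (0.50), *Ctss* (0.42), *H2-DMa* (0.34) and *Ifi30* (0.20), by the interaction test of edgeR. All 5 were called with a positive class from 1 UMI and 0 with one from 3 UMIs. In old females 811 of 1487 positive cells and in young females 972 of 1195 held only 1 or 2 chain UMIs, and the levels of *H2-DMb1* at 1 to 2 chain UMIs (128 and 105.2 CPM) were near those at 0 (115 and 99.7 CPM).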

How the results depend on the processing

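Counts of members called were within 1.5 times of the value given above under each alternative, except as follows. In males over all cells the count of 0 became 1 in DESeq2 (*Ifi30*) and 2 without a filter (*Ifi30* and *Cst3*). Between classes of females the 2 became 4 without a filter, 6 with thinning and 7 with a positive class from 3 UMIs. Over all genes 934 of 16511, 709 of 4972 and 1876 of 8198 were called under these settings. Within positive cells of females the 4 became 1 with thinning and 1 from 3 UMIs. In negative cells the 2 of females became 1 without cells of other lineages, and the 0 of males became 2 in DESeq2, 3 without a filter, 2 with thinning and 1 with the other assignment of cells. With thinning, 15 of 2677 genes were called in the negative cells of males. For age by class in females the 5 became 1 with thinning, 3 without cells of other lineages and 0 from 3 UMIs. For shares of cells in females the 0 became 3 with the other assignment of cells, where 2043 of 10074 genes were called. The adjusted p of these 3 members was then 0.0391 in the exact permutation test. *Ciita* was below the filter in age tests with thinning and without cells of other lineages, which left fewer genes tested. Leaving out other lineages also removed 2330 of the 6641 female cells. Other causes were not tested.

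Cells with and without *Ciita* differed in chain positivity by 40.3 points on full counts and 67.2 points with the other assignment, both in more than 5 mice and with an exact permutation p under 0.05 (0.0078 and 0.031), and in surface MHCII by 1.34 with thinning, where the smallest exact p of 5 mice is 0.0625. The direction of 4 age or class effects over all cells or between classes turned, namely *Lgmn* with age in males (-0.22 with thinning, -0.22 with the other assignment and -0.022 without other lineages), *Ifi30* between classes of females (0.18 with thinning and 0.15 from 3 UMIs) and of males (-0.028 without a filter), and *Ctss* between classes of females (0.65 with thinning, 0.011 without other lineages and 0.71 from 3 UMIs). Within classes, a positive class from 3 UMIs turned *Lgmn* (-0.10), *H2-DMa* (-0.013) and *Cst3* (-0.21) with age in positive cells of females, *Ctss* in those of males (0.18), and *Ciita* (-0.53) and *Cst3* (-0.089) for age by class in females. Thinning turned *Cst3* in positive cells of females (-0.088), *H2-DMa* and *Lgmn* in their negative cells (0.012 and 0.18), *Ctss* in positive cells of males (0.051) and *H2-DMa* for age by class in females (-0.0061), the one of these called in the fit reported above. The other assignment turned *Cst3* in positive cells of females (-0.029), *Ctss* and *H2-DMb1* in those of males (0.042 and 0.092), and *H2-DMb1* and *Ifi30* for age by class in males (0.14 and -0.040). Leaving out other lineages turned *H2-DMb1* in positive and negative cells of males (0.0033 and 0.011), DESeq2 turned *Cst3* in positive cells of females (-0.0027) and no filter turned *Ctss* in those of males (0.044).

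Leaving out 1 mouse gave 2 to 3 members called with age in females, 0 to 1 in males, 2 to 3 and 5 to 5 between classes of females and males, 3 to 5 and 1 to 2 with age in positive and negative cells of females, 0 to 0 and 0 to 2 in those of males, 2 to 5 and 0 to 0 for age by class in females and males and 0 to 0 for age by sex. For shares it gave 0 to 3 in females and 0 to 0 in males. The 3 came without old female 3, where 1644 of 10074 genes were called, or old female 4, where 2252 were. The *Ciita* difference in chain positivity was 60.9 to 73.4 points and in surface MHCII 1.33 to 1.48. The direction turned in males for *Ctss* (-0.18 to 0.17), *H2-DMa* (-0.065 to 0.18) and *Lgmn* (-0.10 to 0.16), in positive cells for *Cst3* of females (-0.018 to 0.019) and *Ctss* of males (-0.35 to 0.039), in negative cells of males for *H2-DMb1* (-0.13 to 0.044) and *Lgmn* (-0.36 to 0.066), and for age by class in *Ciita* (-0.14 to 0.82) and *H2-DMb2* (-0.24 to 0.11) of females and *Ctss* (-0.073 to 0.35) and *Lgmn* (-0.91 to 0.0052) of males. The surface and chain-UMI values without 1 mouse were chosen after seeing the data.

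Over all genes, calls with age in females went from 345 to 150 with thinning, in males from 0 to 22 in DESeq2 and 95 without a filter. Between classes they went from 687 to 116 without cells of other lineages and 1876 from 3 UMIs in females, and from 225 to 476 without a filter, 122 without other lineages and 647 from 3 UMIs in males. With age in positive cells of females they went from 187 to 313 without a filter, 18 with thinning and 14 from 3 UMIs, in negative cells from 388 to 162 with thinning and 250 without other lineages, in positive cells of males from 0 to 32 without a filter, and in their negative cells from 13 to 47 in DESeq2, 187 without a filter and 32 with the other assignment. For age by class in females they went from 174 to 327 without a filter, 13 with thinning, 103 with the other assignment, 70 without other lineages and 0 from 3 UMIs, in males from 0 to 11 without a filter, and for age by sex from 2 to between 1 and 5. Without 1 mouse they ranged with age in females from 194 (young female 2) to 522 (old female 4), in their positive cells from 106 (young female 5) to 268 (old female 5) and in their negative cells from 226 (young female 5) to 498 (old female 4). In males they ranged with age from 0 to 39 (old male 1) and in negative cells from 0 (old male 3) to 139 (old male 1). Between classes they ranged from 433 (young female 1) to 1017 (old female 4) in females and from 131 (old male 2) to 282 (young male 4) in males, and for age by class from 28 (old female 4) to 366 (young female 4) in females and from 0 to 1 in males.

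Old and young mice could not be compared as pairs, because their numbers do not pair them. The male test of *Ciita* and chain UMIs gave no value, and depth limits *Ciita* and *H2-DMb2* in males, with 16 and 25 UMIs in old and 5 and 32 in young mice.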
